A study of Mus musculus with 23 samples.

Results

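Genes of the major histocompatibility complex (MHC) and of antigen presentation were measured in mouse intestinal organoids and in ribosomes pulled down from mouse small intestine. They were chosen by name alone, as genes of GENCODE vM21 whose symbol starts with H2- or is B2m, Cd74, Ciita, Nlrc5, Tap1, Tap2, Tapbp, Psmb8, Psmb9 or Psmb10, which gave 47 of the 22350 genes counted. By role they are 2 classical (class Ia) heavy chains, the light chain gene B2m, 24 non-classical (class Ib) heavy chains, 5 class II chains, 6 class II loading factors, 2 transactivators and 6 genes that supply peptides. The last member, H2-Ke6, carries the prefix for its place in the locus only and codes for an enzyme of steroid and fatty acid metabolism.

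The study asked how loss of Rptor, which codes for an essential part of the growth kinase complex mTORC1, changes intestinal stem cells and their translation. Organoids are epithelial cultures grown from crypts, and all mice and cultures had the C57BL/6 background. RNA-seq covered wild type (WT) organoids labelled VillinCre.ERT2.RPL22.HA, from 2 lines, organoids labelled VillinCre.ERT2.Rptor.fl/fl, from 2 lines, and 3 stem cell enriched (SCe) cultures of the WT genotype, to whose ENR medium (EGF, Noggin and R-spondin) valproic acid at 1.5 mM and CHIR 99021 at 10 µM had been added. Each WT and Rptor fl/fl line had been sequenced as 2 technical libraries, which were summed, so that 23 libraries gave 19 replicates.

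Ribosome profiling (Ribo-seq), the sequencing of fragments protected by ribosomes, covered 3 organoid cultures labelled VillinCre.ERT2.Rptor.fl/fl.RPL22.HA, 3 SCe cultures labelled VillinCre.ERT2.RPL22.HA, 3 mice labelled Lgr5Cre.ERT2.RPL22.HA and 3 labelled Lgr5Cre.ERT2.Rptor.fl/fl.RPL22.HA. RPL22.HA is a ribosomal protein allele that gains an HA tag where Cre has acted, so that tagged ribosomes can be pulled down. The Villin promoter drives Cre in the whole intestinal epithelium and the Lgr5 promoter in crypt base stem cells, and in mice the pulldown was made from a lysate of the whole small intestine of adult females and males. The labels call all groups but SCe untreated. The study's methods, however, describe tamoxifen injections to start Cre in the VillinCre animals, and induction in vitro of a further Rptor fl/fl set. The Lgr5Cre mice were injected on the day before collection. Nothing in the labels says whether the 3 cultures of a group were started separately, so p-values there measure the spread between these samples.

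MHC class I molecules pair a heavy chain with the light chain B2m and show peptides from inside the cell to CD8 T cells and natural killer cells. Their peptides are cut by the proteasome, whose inducible subunits are Psmb8, Psmb9 and Psmb10, pumped by Tap1 and Tap2 and handed over by Tapbp. MHC class II molecules pair an alpha and a beta chain, are escorted by the invariant chain Cd74, are loaded with the help of H2-DM and show peptides from outside the cell to CD4 T cells. Ciita switches on class II genes and Nlrc5 class I genes, both downstream of interferon gamma. Class II is best known from B cells, macrophages and dendritic cells, but intestinal epithelium, crypt stem cells included, can also carry it.

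In RNA-seq each library held between 23802944 and 67598878 reads on the counted transcripts, in Ribo-seq of organoids between 1106178 and 8257457 on coding sequences, and in Ribo-seq of mice between 772077 and 8238388. Rptor checked the labels. In RNA-seq it lay between 47.9 and 51.5 counts per 1000000 (CPM) in WT, between 14.8 and 15.5 in Rptor fl/fl and between 53.7 and 60.8 in SCe organoids, while in Ribo-seq of organoids it lay between 16.0 and 18.7 in the cultures labelled Rptor fl/fl and between 15.2 and 41.9 in SCe, which overlap. In mice it lay between 39.7 and 44.7 in WT and between 32.6 and 36.9 in the mice labelled Rptor fl/fl, a difference that did not pass the test (log2 fold change −0.28, adjusted p = 0.15), so the Ribo-seq groups are named below by their labels. Replicate 1 of the SCe RNA-seq stood apart from replicates 2 and 3: its summed enterocyte markers were 357 CPM, against 6211 and 7259, and results that rest on it are given with and without it.

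Of the 47 members, 42 lie on chromosome 17, most of them inside the MHC. In GRCm38 (mm10) coordinates, H2-K1 is at chr17:33996017-34000347, H2-Ab1 at chr17:34257689-34269419, H2-D1 at chr17:35262730-35267499 and H2-Q10 at chr17:35470089-35474563. B2m is at chr2:122147686-122153083 and Psmb10 at chr8:105935735-105938444. Psmb9 and Tap1 lie on opposite strands and point away from each other, with an overlap of 212 bases at their starts. B2m and Patl2, Ciita and Dexi, and H2-DMa and Brd2 also overlap on opposite strands, and Tapbp and Zbtb22 on the same strand. The kit keeps strand, but the strand setting of the counting is not given in the sources used here.

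The class I heavy chains are close copies of each other, and short reads cannot always be placed on one of them. H2-Q6 and H2-Q7 are identical at 95.4% of their aligned coding bases, and H2-K1 and H2-D1 at 91.0%. A 60-base stretch of exon 4 illustrates the problem: it is letter for letter the same in H2-K1 (chr17:33997358-33997417, minus strand), H2-D1 (chr17:35265927-35265986, plus strand), H2-Q6 (chr17:35428007-35428066, plus strand), H2-Q7 (chr17:35442410-35442469, plus strand) and H2-Q10 (chr17:35473226-35473285, plus strand). A footprint from it could come from any of the 5 genes.
H2-K1, H2-D1, H2-Q6, H2-Q7 and H2-Q10: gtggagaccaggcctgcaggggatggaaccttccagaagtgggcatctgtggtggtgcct

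Exon 2, which codes for part of the peptide-binding groove, sets the copies apart. In the 60-base stretch with the most differences among the 5 genes, 21 columns varied. The letters that differ from H2-K1 are in capitals.
H2-K1, chr17:33999934-33999993, minus strand: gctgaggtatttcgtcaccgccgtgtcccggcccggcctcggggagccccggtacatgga
H2-D1, chr17:35263389-35263448, plus strand: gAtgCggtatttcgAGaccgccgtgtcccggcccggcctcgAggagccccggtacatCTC
H2-Q6, chr17:35425118-35425177, plus strand: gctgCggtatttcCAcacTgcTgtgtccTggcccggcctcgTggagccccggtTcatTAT
H2-Q7, chr17:35439462-35439521, plus strand: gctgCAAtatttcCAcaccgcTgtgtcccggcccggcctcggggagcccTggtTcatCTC
H2-Q10, chr17:35470386-35470445, plus strand: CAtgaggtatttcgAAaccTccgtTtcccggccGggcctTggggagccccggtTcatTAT

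Over whole coding sequences, 50.9% of the 28-base stretches of H2-Q6 and 51.8% of those of H2-Q7 also occurred in another gene. The share was 41.1% for H2-D1, 29.3% for H2-K1, 29.7% for H2-Q10, 62.3% for H2-T22 and 62.6% for H2-DMb1. B2m, Cd74, Nlrc5, Psmb8, Psmb9 and Psmb10 had 0. Salmon, the counting tool of the study, divides shared reads among copies, so values of single heavy chains, and of H2-Q6 against H2-Q7 above all, are uncertain. B2m and the proteasome genes share no such stretch, while the overlaps of B2m with Patl2 and of Psmb9 with Tap1 on opposite strands remain.

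RefSeq promoter sequences (GRCm38.p6, the 250 bases before each start) were at hand for 37 members. MHC promoters are known for a conserved module in which an X box, bound by RFX and CREB-type factors, stands upstream of a Y box bound by NF-Y. The search was for TGACG followed 10 to 40 bases downstream on the gene's strand by ATTGG, counted from start to start. This pair occurred in 6 of the 37 members and in 0.444% of all 27025 genes with a promoter sequence. A gene was counted where any of its promoters matched. ATTGG alone, on either strand, was in 32 of 37 members and 37.5% of all these genes, and TGACG alone in 15 of 37 and 19.8%. GAAA repeated after 2 free bases, the pattern of an interferon-stimulated response element, was in 3 of 37 and 3.46%. These are matches of letters, not sites shown to be bound. The windows of 5 of the 6 members are shown because they let the spacing be compared between class I genes, B2m and a class II gene, with TGACG and ATTGG in capitals.
B2m, chr2:122147601-122147646, plus strand: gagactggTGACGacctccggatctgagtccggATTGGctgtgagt
H2-K1, chr17:34000351-34000396, minus strand: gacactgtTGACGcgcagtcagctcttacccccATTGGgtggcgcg
H2-Q7, chr17:35439083-35439127, plus strand: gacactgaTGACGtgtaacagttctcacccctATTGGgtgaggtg
H2-M3, chr17:37270180-37270225, plus strand: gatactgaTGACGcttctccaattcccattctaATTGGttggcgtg
H2-Aa, chr17:34287859-34287905, minus strand: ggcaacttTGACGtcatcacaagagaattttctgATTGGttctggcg

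The spacing was 25 bases in B2m, H2-K1 and H2-M3, 24 in H2-Q7 and 26 in H2-Aa, and the sixth member, H2-D1, had 25. Promoters of H2-Ab1, Nlrc5, Tap2, Cd74, Ciita, H2-Bl, H2-Ea-ps, H2-Q1, H2-T10 and H2-T24 were not in the table.

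Levels between genes were compared per base of counted sequence, rescaled to the same sum in each library and given in parts per 1000000. H2-K1 and B2m were the most abundant members in every organoid group, with H2-D1 next. In RNA-seq of WT organoids H2-K1 was at 396 ± 11.7 (SD, n = 2) parts per 1000000, B2m at 358 ± 55.7 and H2-D1 at 149.6 ± 8.50, so the order of the first and second lay within their spread. In Ribo-seq of WT mice B2m led at 6152 ± 295 (SD, n = 3), followed by the invariant chain Cd74 at 3458 ± 17.9, H2-K1 at 2383 ± 93.8, H2-D1 at 1569 ± 62.4 and H2-Ab1 at 1405 ± 37.3. Mouse and organoid Ribo-seq were counted on different sequences and normalised separately, so their values stand side by side and were not tested against each other.

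The 5 class II chains together held between 0.343 and 0.434 CPM in RNA-seq of WT organoids and between 2236 and 2302 CPM in Ribo-seq of WT mice. Cd74 was at 0.113 and 0.262 CPM in the WT organoid lines and at 2612, 2576 and 2566 CPM in the 3 WT mice. Markers of other cells moved with this contrast. Lists of 9 T and NK cell genes, 8 B and plasma cell genes and 12 macrophage and dendritic cell genes summed to at most 5.85, 4.30 and 17.5 CPM in RNA-seq of organoids, with Cd3g, Cd4, Adgre1 and Itgax at 0 in WT, and to 259–310, 1060.5–1128 and 468–502 CPM in WT mice, with reads on all markers. Their part in the mouse values was not tested. In bulk samples such as these, fewer cells of a type and less RNA per cell cannot be told apart.

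**Figure D1:**
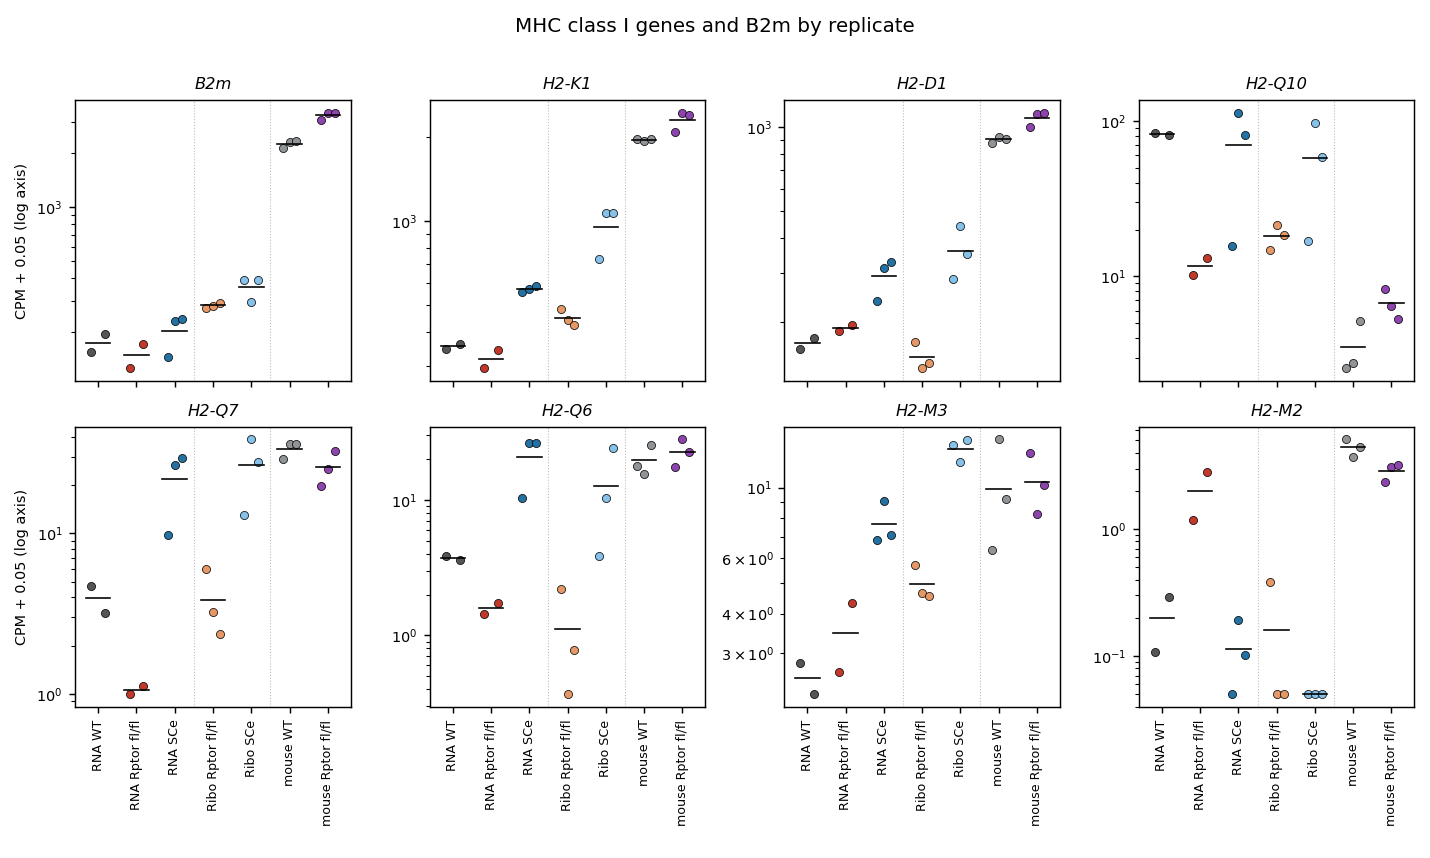
CPM plus 0.05 (log axis) of B2m and 7 class I heavy chains in each replicate (points) of the 7 groups, with the group mean as a line, dotted lines separating organoid RNA-seq, organoid Ribo-seq and mouse Ribo-seq, which were normalised separately. H2-Q10 was at 82.9 and 81.4 CPM in WT and 10.1 and 13.0 in Rptor fl/fl organoids, while B2m overlapped between these groups.

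RNA-seq of Rptor fl/fl against WT organoids asks what loss of Rptor does to mRNA levels. By label the WT lines carried RPL22.HA and the Rptor fl/fl lines did not. Effects of Rptor loss, of this allele and of the lines therefore cannot be told apart here. Several class Ib heavy chains fell and the classical class I genes did not pass the test. Of 47 members 27 had enough counts to be tested, and 1 rose while 6 fell at an adjusted p under 0.05. Over all 14131 genes tested 22.6% passed, 11.6% higher and 11% lower. The members' median log2 fold change was −0.16, beside −0.0049 over all genes. The fall of Rptor itself was 1.71 on the log2 scale (adjusted p = 0.00516).

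H2-Q10, which codes for a secreted class Ib chain, had 82.9 and 81.4 CPM in WT and 10.1 and 13.0 CPM in Rptor fl/fl. It fell by 2.83 on the log2 scale (SE 0.138, adjusted p = 0.00516), 7.10-fold, the smallest adjusted p among the members. H2-Q7 and H2-Q6, which code for Qa-2 antigens, fell as well. H2-Q7 was at 4.67 and 3.15 CPM in WT and at 0.948 and 1.07 in Rptor fl/fl (log2 fold change −1.95, SE 0.271, adjusted p = 0.0173). H2-Q6 was at 3.80 and 3.55 CPM in WT and at 1.39 and 1.68 in Rptor fl/fl (−1.26, SE 0.194, adjusted p = 0.0199). The groups did not overlap in these 3 genes, which with 2 lines against 2 was also so for 69.1% of all genes tested.

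Falls of further Q-region genes were smaller. H2-Q2 was at 75.1 and 85.1 CPM in WT and at 30.7 and 48.0 in Rptor fl/fl (log2 fold change −1.02, SE 0.222, adjusted p = 0.0369). H2-Q1 was at 11.8 and 8.77 CPM in WT and at 4.20 and 5.65 in Rptor fl/fl (−1.06, SE 0.225, adjusted p = 0.0353). In contrast H2-Q4, a neighbour in the same cluster, was at 27.6 and 25.4 CPM in WT and at 26.8 and 26.9 in Rptor fl/fl, overlapping values.

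The 1 member that rose was H2-M2, a class Ib gene of low level. It had 3 and 12 reads in WT (0.0567 and 0.242 CPM) and 58 and 157 reads in Rptor fl/fl (1.12 and 2.75 CPM), a log2 fold change of 3.70 (SE 0.768, adjusted p = 0.0337). When each replicate was left out in turn, its fold change ranged from 2.92 to 5.04.

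The classical heavy chains and the light chain did not pass the test. H2-K1 was at 348 and 361 CPM in WT and at 296 and 344 in Rptor fl/fl (log2 fold change −0.15, 95% interval −0.39 to 0.10). H2-D1 was at 159.5 and 175 CPM in WT and at 186 and 195 in Rptor fl/fl (0.19, SE 0.0723, adjusted p = 0.125). B2m was at 155 and 195 CPM in WT and at 127 and 173 in Rptor fl/fl (−0.22, 95% interval −0.71 to 0.27), with overlapping groups. Summed over all 26 class I heavy chains, WT lines held 801 and 840 CPM and Rptor fl/fl lines 626 and 728 CPM.

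Among the genes that supply peptides, the immunoproteasome subunit Psmb9 fell, from 2.13 and 3.39 CPM in WT to 0.755 and 1.15 in Rptor fl/fl (log2 fold change −1.53, SE 0.355, adjusted p = 0.0426). Psmb8 was at 0.944 and 1.94 CPM in WT and at 0.213 and 0.682 in Rptor fl/fl, a difference of similar size with a wider error (−1.67, SE 0.648, adjusted p = 0.129). Psmb10, at 29.8 and 39.1 CPM in WT and 24.0 and 30.3 in Rptor fl/fl, overlapped between groups. Tap1 was at 7.42 and 9.06 CPM in WT and at 10.5 and 8.13 in Rptor fl/fl, and Tap2 and Tapbp overlapped as well.

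Class II genes were near the limit of detection in both groups. H2-Ab1 had 9 and 10 reads in WT and 3 and 1 in Rptor fl/fl, and Cd74 6 and 13 against 1 and 1. H2-Aa, H2-Ab1, H2-Eb1, Cd74, H2-DMb1 and Nlrc5 had too few counts to be tested. H2-DMa, at 1.72 and 1.47 CPM in WT and 0.755 and 0.980 in Rptor fl/fl, did not pass (log2 fold change −0.88, adjusted p = 0.0732), and Ciita overlapped between groups, at 0.340 and 0.625 CPM against 0.387 and 0.472. The floor that a count of 3 allows was 0.0525 to 0.0605 CPM in these 4 lines, for counting error only.

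With 2 lines per group these calls were sensitive to each line. H2-Q10 was the only one of the 7 called members to pass whichever line was left out, and it lost the call when SCe organoids entered the same fit, as did all others (0 of 32 members at an adjusted p under 0.05, 8 at an unadjusted p under 0.05, smallest adjusted p 0.0687 by edgeR). Leaving out any line leaves 1 line in a group, which is assumed to vary like the other group. In each of these fits fewer members were called, and fewer genes over all as well. Markers of epithelial cell types also differed between these groups. The 7 Paneth cell markers summed to 4986 and 6196 CPM in WT and to 884 and 1851 in Rptor fl/fl, with 6 called lower, and the 7 Lgr5 stem cell markers to 4856 and 6600 CPM and to 1944 and 3293, with 5 called lower. T and NK cell markers were at 2.59 to 2.74 CPM in WT and 1.16 to 1.54 in Rptor fl/fl, and B and plasma cell markers at 3.87 to 4.30 and 2.01 to 2.94. The part of these cells in the falls was not tested.

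**Figure D2:**
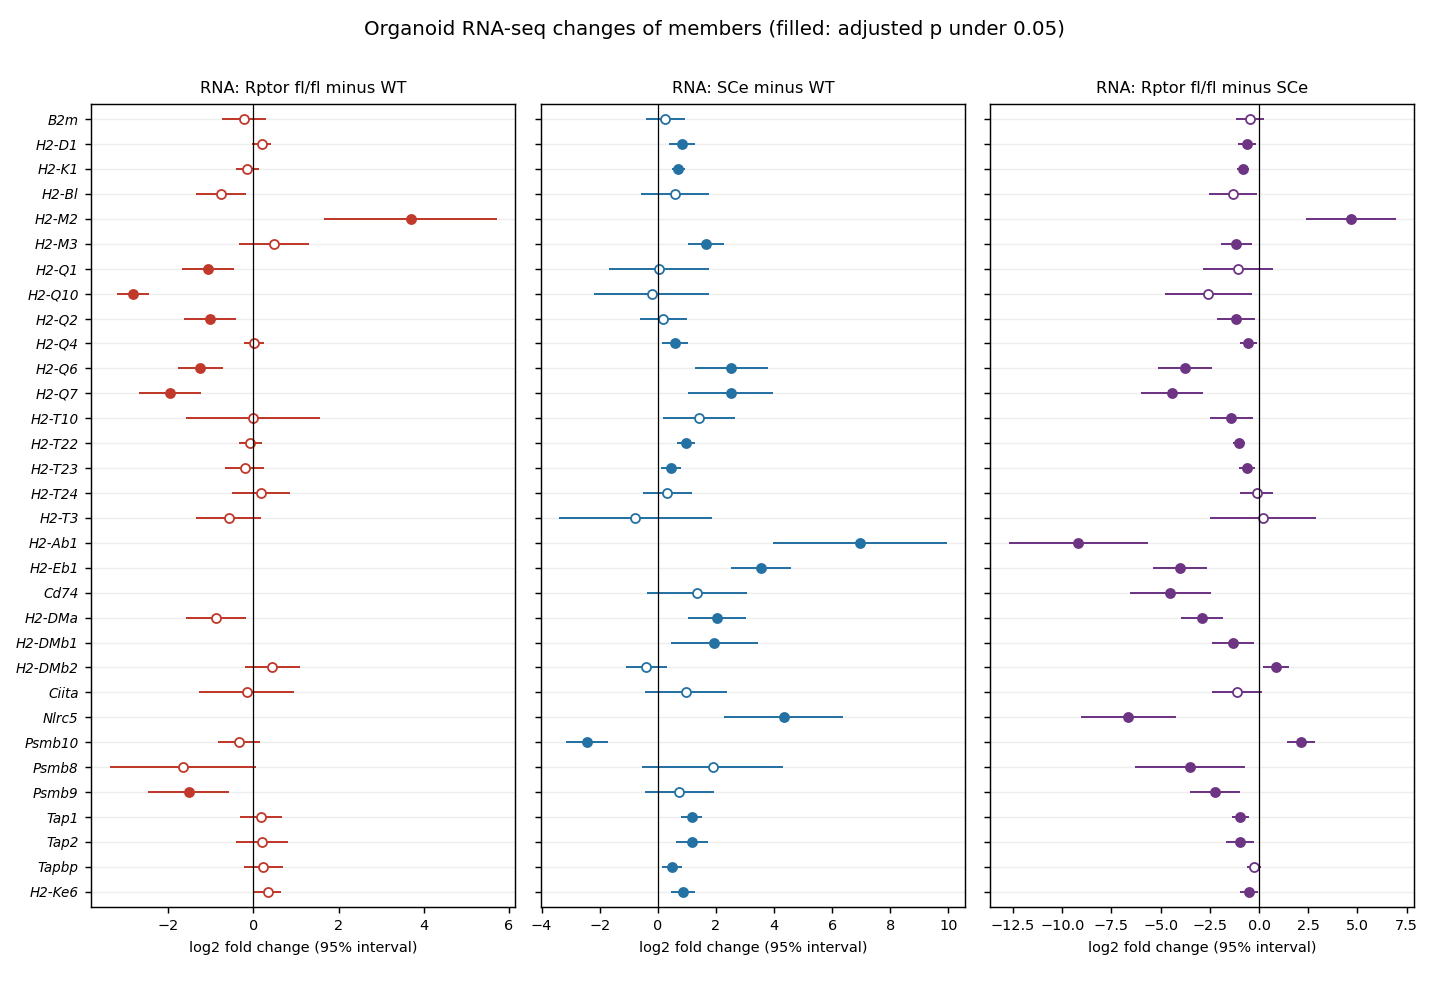
Log2 fold changes (points, filled at an adjusted p under 0.05) with 95% intervals of all members tested in at least 1 of the 3 RNA-seq comparisons, ordered by role. The 3 panels share groups, so they are not independent. H2-Ab1, H2-Eb1 and Nlrc5 lie far to the right in SCe against WT and far to the left in Rptor fl/fl against SCe, while H2-DMb2 (−0.39 and 0.86) and Psmb10 lie on the opposite side in both, and the interval of Cd74 in SCe against WT reaches from −0.34 to 3.04.

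SCe and WT organoids had the same genotype and differed in the medium, so their comparison asks what the enrichment culture does to these genes. No label ties their cultures to 1 source, so effects of the medium and of the lines cannot be told apart. In SCe organoids most tested members were higher. Of 31 tested, 17 rose and 1 fell, while over all 14925 genes 42.3% passed, 22.4% higher and 19.9% lower. The median log2 fold change was 0.88 over members and 0.023 over all genes.

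H2-Ab1 had the highest log2 fold change of the 31 members tested, followed by Nlrc5 and H2-Eb1, while Cd74 and H2-DMb2 did not pass and H2-Aa was too low to test. H2-Ab1, the beta chain of the I-A molecule, had 0.170 and 0.202 CPM in WT, against 5.18, 27.5 and 35.7 CPM in SCe replicates 1, 2 and 3. Its log2 fold change was 6.95 (SE 1.15, adjusted p = 0.00923), and even the lowest SCe replicate held 155 reads against 9 and 10 in WT. Its partner H2-Aa, the alpha chain of I-A, stayed near 0, with 0 and 1 reads in WT and 1, 5 and 3 reads in SCe, too few to test. An I-A molecule needs both chains.

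H2-Eb1, the beta chain of I-E, whose alpha chain gene H2-Ea-ps is a pseudogene in this strain and had no read in any library, was at 0.189 and 0.101 CPM in WT and at 1.87, 1.68 and 1.60 CPM in SCe (log2 fold change 3.56, SE 0.387, adjusted p = 0.00329). H2-DMa, a chain of the H2-DM peptide editor, was at 1.72 and 1.47 CPM in WT and at 4.08, 8.43 and 6.95 in SCe (2.05, SE 0.376, adjusted p = 0.012). H2-DMb1, a beta chain of H2-DM that shares most of its coding stretches with H2-DMb2, rose from 0.0378 and 0.121 CPM to 0.368, 0.283 and 0.275 (1.94, SE 0.573, adjusted p = 0.0464). That call stood in 4 of 13 alternatives, and the log2 fold change ranged from 1.32 to 2.95 with each replicate left out in turn. H2-DMb2, the copy at the higher level, was at 1.11 and 1.45 CPM in WT and 0.970, 1.04 and 0.877 in SCe and did not pass.

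Cd74 and Ciita, the invariant chain and the class II transactivator, did not pass with all libraries. Cd74 was at 0.113 and 0.262 CPM in WT and at 0.201, 0.597 and 0.585 in SCe (log2 fold change 1.35, adjusted p = 0.158). Ciita was at 0.340 and 0.625 CPM in WT and at 0.535, 1.37 and 0.860 in SCe (0.97, adjusted p = 0.2). In both genes SCe replicate 1 lay within the range of WT. Nlrc5, the class I transactivator, rose from 0.170 and 0.222 CPM to 1.34, 5.07 and 5.26 CPM (4.33, SE 0.787, adjusted p = 0.0118), with SCe replicate 1 lowest but above both WT lines.

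**Figure D3:**
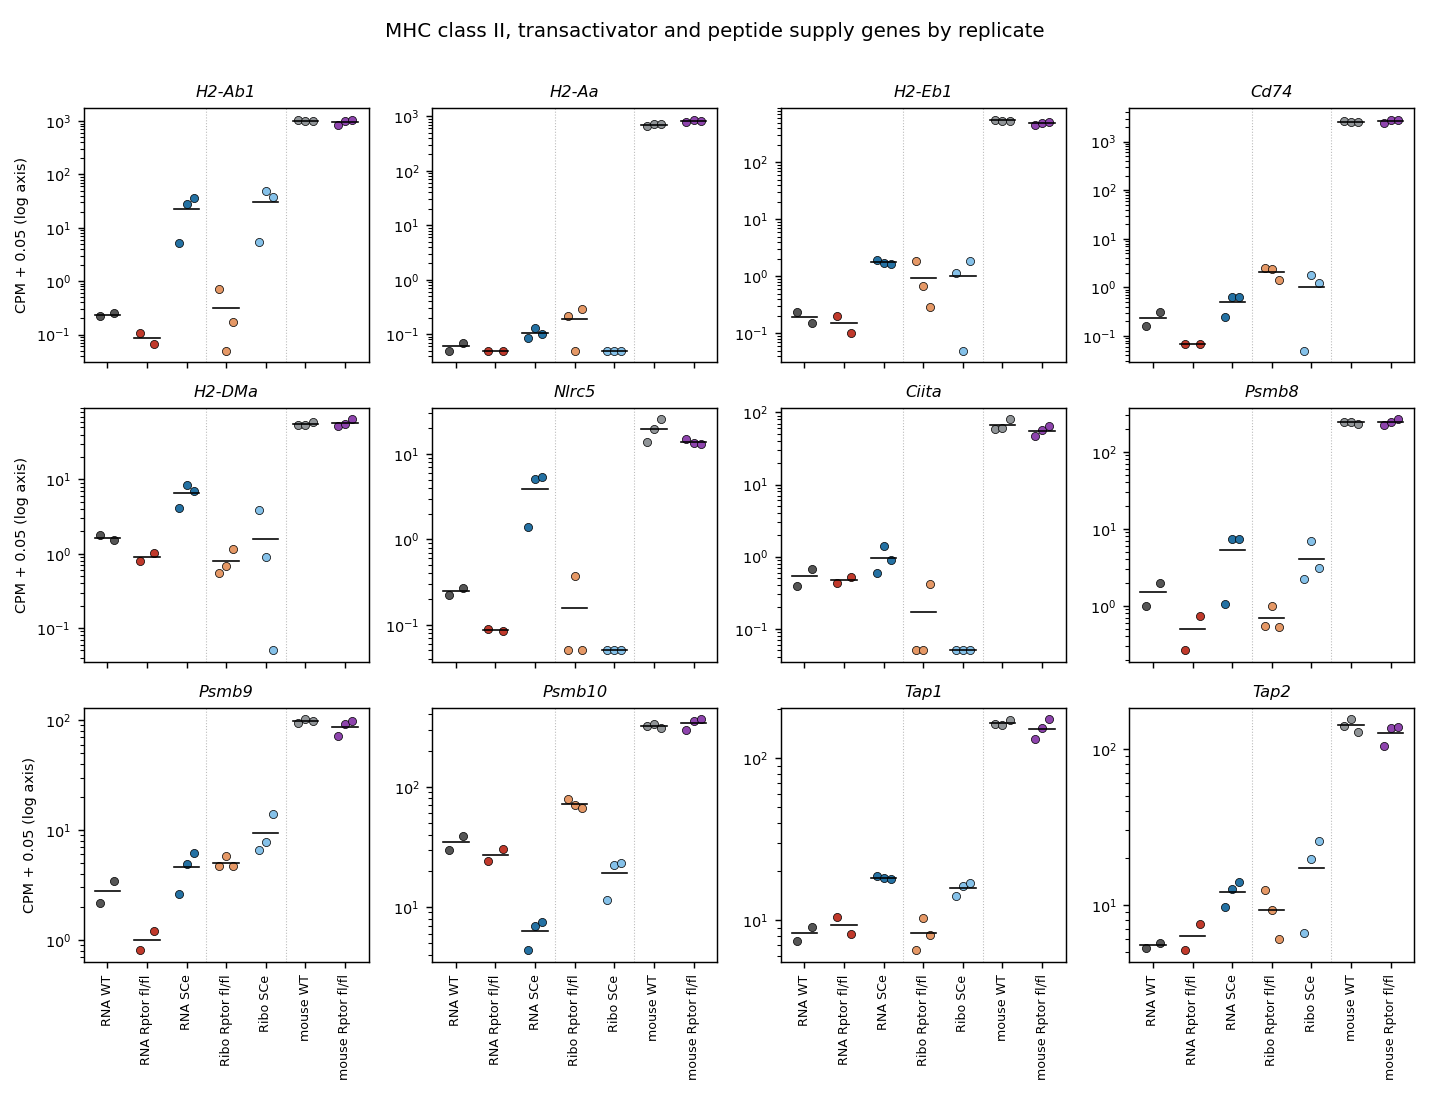
CPM plus 0.05 (log axis) of class II chains and loading factors, transactivators and peptide supply genes in each replicate (points), with the group mean as a line. H2-Ab1 reached 5.18 to 35.7 CPM in SCe organoids with H2-Aa at 0.0785 CPM or less, Psmb10 was lowest in SCe in both assays, and the mouse values, normalised separately, lie far above those of organoids for class II.

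Both classical heavy chains rose. H2-K1 was at 348 and 361 CPM in WT and at 556, 568 and 582 in SCe (log2 fold change 0.70, SE 0.0726, adjusted p = 0.00299), 1.63-fold. H2-D1 was at 159.5 and 175 CPM in WT and at 237, 311 and 328 in SCe (0.83, SE 0.165, adjusted p = 0.0153). B2m did not follow within error, at 155 and 195 CPM in WT and 146, 232 and 236 in SCe (0.25, SE 0.249, adjusted p = 0.454). SCe replicate 1 again lay lowest for both H2-D1 and B2m.

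Several class Ib genes rose. H2-Q6 rose from 3.80 and 3.55 CPM to 10.3, 26.2 and 26.1 (log2 fold change 2.53, SE 0.478, adjusted p = 0.013), and H2-Q7 from 4.67 and 3.15 CPM to 9.73, 26.4 and 29.3 (2.51, SE 0.561, adjusted p = 0.0213). H2-M3, which presents formylated peptides, rose from 2.74 and 2.18 CPM to 6.79, 9.03 and 7.02 (1.65, SE 0.229, adjusted p = 0.00581). Smaller rises passed for H2-T22, a ligand of gamma delta T cells (0.98, adjusted p = 0.00327), H2-Q4 (0.59, adjusted p = 0.0362) and H2-T23, which codes for the Qa-1 heavy chain (0.45, adjusted p = 0.034).

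H2-Q10 did not pass, with SCe replicates at 15.7, 112 and 81.0 CPM around the WT values of 82.9 and 81.4. H2-T3, which codes for the thymus leukaemia antigen of intestinal epithelium, behaved alike in replicate 1: it was at 18.4 and 15.6 CPM in WT and at 0.836, 13.3 and 14.9 in SCe (log2 fold change −0.77, not called). H2-Ke6, the enzyme gene, rose from 18.4 and 19.5 CPM to 28.7, 38.1 and 36.3 (0.88, SE 0.148, adjusted p = 0.00963).

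The peptide supply genes went in opposite directions. Psmb10 was the 1 member that fell, from 29.8 and 39.1 CPM in WT to 4.31, 6.93 and 7.38 in SCe, 5.44-fold (log2 fold change −2.44, SE 0.269, adjusted p = 0.00338). Tap1 rose from 7.42 and 9.06 CPM to 18.7, 18.1 and 17.8 (1.16, SE 0.128, adjusted p = 0.00338), and Tap2 rose from 5.21 and 5.69 CPM to 9.60, 12.7 and 14.0 (1.17, SE 0.207, adjusted p = 0.0108). Tapbp rose less, from 41.8 and 52.7 CPM to 62.4, 67.6 and 66.6 (0.49, SE 0.119, adjusted p = 0.0265). Psmb8 was at 0.944 and 1.94 CPM in WT and at 1.00, 7.29 and 7.33 in SCe (1.89, adjusted p = 0.162), and Psmb9 also overlapped between groups, so Psmb10 was the 1 inducible proteasome subunit called.

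The number of members called moved with single replicates, from 18 to 12 and 13 without SCe replicates 2 and 3. Over all genes the calls fell there to 2385 higher and 1984 lower of 14590, and to 2249 and 1793 of 14557. Leaving out either WT line leaves 1 line in that group, and fewer members and fewer genes over all were then called. Without SCe replicate 1, 27 members passed in place of 18, adding B2m (log2 fold change 0.44), Cd74 (1.67), Ciita (1.23), Psmb8 (2.36), Psmb9 (1.01), H2-T10 (1.54), H2-Bl (0.88), H2-Q1 (0.47) and H2-Q2 (0.42). Calls over all genes rose too, to 4744 higher and 4786 lower of 14855 tested, from 3343 and 2966 of 14925. Under each replicate left out and each other alternative tried, 5 members kept their call, namely H2-K1, H2-T22, H2-Eb1, Tap1 and Psmb10.

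Markers of cell types moved between SCe and WT as well. Epithelial markers summed to 4483 to 4895.5 CPM in SCe and 8180.5 to 8576 in WT, Lgr5 stem cell markers to 2452 to 3265 and 4856 to 6600, and Paneth cell markers to 923 to 4096.5 and 4986 to 6196. The 7 stem cell markers were split, with a median log2 fold change of 0.20. Tnfrsf19 was called higher (2.07), and Olfm4 (−5.55) and Ascl2 (−1.81) lower. Lgr5 itself was at 219 to 337 CPM in SCe and 197 to 215 in WT and did not pass. Lists of cells outside the epithelium were at a low level. T and NK cell markers were at 4.59 to 5.85 CPM in SCe and 2.59 to 2.74 in WT, stroma markers at 3.96 to 6.25 and 0.464 to 0.491, and smooth muscle markers at 1.27 to 1.62 and 0.151 to 0.161. B and plasma cell markers were lower in SCe, at 2.17 to 3.50 CPM against 3.87 to 4.30, as were macrophage and dendritic cell markers, at 7.16 to 11.1 against 11.6 to 17.5. The T cell kinase gene Lck was called higher in SCe (log2 fold change 1.11, adjusted p = 0.0262), as was the plasma cell gene Mzb1, with 0 reads in WT and at most 18 in an SCe library (adjusted p = 0.0105). Derl3, of the same list as Mzb1, was called lower (−3.60, adjusted p = 0.00177). The part of these cells in the changes was not tested.

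The comparison of Rptor fl/fl with SCe organoids sets Rptor loss against an adult stem cell culture, and was made in RNA-seq and in Ribo-seq. It shares the SCe and Rptor fl/fl libraries with the comparisons against WT, and its groups differed in genotype and in medium. In RNA-seq 32 members were tested, 3 were higher and 21 lower in Rptor fl/fl. Over all 15103 genes 42.7% passed, 21% higher and 21.8% lower. The median log2 fold change was −1.09 over members and −0.014 over all genes.

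In Ribo-seq 21 members had enough counts, of which 1 was higher and 10 lower in the cultures labelled Rptor fl/fl. Over all 10817 genes 16.5% passed, 6.63% higher and 9.84% lower, and the medians were −1.05 over members and −0.023 over all genes. Of the 21 members tested in both assays, 16 were called in RNA-seq and 11 in Ribo-seq, and all 11 were called in the same direction in RNA-seq (68.8% of the RNA-seq calls). Over all 10747 genes tested in both, 4798 were called in RNA-seq and 1776 in Ribo-seq, and 1217 were called in the same direction in both (25.4% of RNA-seq and 68.5% of Ribo-seq calls).

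H2-Ab1 differed most in both assays. In RNA-seq it had 3 and 1 reads in the Rptor fl/fl lines (0.0581 and 0.0175 CPM) against 5.18, 27.5 and 35.7 CPM in SCe, a ratio of 714 over pooled reads with an exact 95% counting interval of 279 to 2622. In Ribo-seq it had 4, 0 and 1 footprints in the cultures labelled Rptor fl/fl and 5.43, 48.8 and 37.0 CPM in SCe, a ratio of 127 (54 to 395, counting error only). Both differences passed the test (adjusted p = 0.0064 in RNA-seq and 0.00329 in Ribo-seq). H2-Aa had at most 2 footprints in any organoid library, so the class II footprints of SCe organoids were nearly all on 1 beta chain.

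The other class II genes could be tested in RNA-seq only. Cd74 had 1 read in each Rptor fl/fl line and 6, 38 and 34 in SCe, and the ratio of SCe over Rptor fl/fl had an exact 95% counting interval of 7.49 to 235 (adjusted p = 0.0101). In Ribo-seq Cd74 did not show that order, with 2.49, 2.38 and 1.34 CPM in the cultures labelled Rptor fl/fl and 0, 1.71 and 1.16 in SCe, from at most 15 footprints a library. H2-Eb1 was at 0.155 and 0.0525 CPM against 1.87, 1.68 and 1.60 in RNA-seq (log2 fold change −4.03, SE 0.518, adjusted p = 0.00432), and H2-DMa at 0.755 and 0.980 CPM against 4.08, 8.43 and 6.95 (−2.90, SE 0.407, adjusted p = 0.00543). H2-DMb2 went the other way, at 1.70 and 1.78 CPM in Rptor fl/fl and 0.970, 1.04 and 0.877 in SCe (0.86, adjusted p = 0.0414), while its near copy H2-DMb1 was lower (−1.33, adjusted p = 0.0486), a call that stood in 2 of 13 alternatives. The reads of H2-DMb1 and H2-DMb2 cannot be fully told apart.

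Nlrc5 had 2 reads in each Rptor fl/fl line and 1.34, 5.07 and 5.26 CPM in SCe (adjusted p = 0.00541). The ratio over pooled reads was 120.0 (46.6 to 442, counting error only). Ciita was at 0.387 and 0.472 CPM in Rptor fl/fl and 0.535, 1.37 and 0.860 in SCe and did not pass (log2 fold change −1.11, adjusted p = 0.122). Both transactivators had at most 3 footprints in any organoid Ribo-seq library and were not tested there.

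The classical heavy chains were lower in both assays. H2-K1 was at 296 and 344 CPM in Rptor fl/fl and 556, 568 and 582 in SCe in RNA-seq (log2 fold change −0.83, SE 0.0999, adjusted p = 0.00367), and at 482, 442 and 423 against 730.3, 1063 and 1069 CPM in Ribo-seq (−1.09, SE 0.2, adjusted p = 0.00815). H2-D1 was at 186 and 195 CPM against 237, 311 and 328 in RNA-seq (−0.61, SE 0.16, adjusted p = 0.0312), and at 169, 136 and 142 against 284, 441 and 350.1 in Ribo-seq (−1.27, SE 0.204, adjusted p = 0.00494). No Rptor fl/fl replicate reached the lowest SCe replicate in either gene or assay, a lack of overlap seen in 68.1% of all genes tested in RNA-seq and 39.3% in Ribo-seq. B2m had the same direction and did not pass in either assay, at 275, 280.3 and 292 CPM in the Ribo-seq of cultures labelled Rptor fl/fl and 394, 294 and 393 in SCe (−0.35, adjusted p = 0.202).

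Of the class Ib genes, H2-Q6, H2-Q7, H2-Q4, H2-M3 and H2-T23 were lower in both assays. H2-Q7 was at 5.98, 3.18 and 2.31 CPM in the Ribo-seq of cultures labelled Rptor fl/fl and at 13.0, 38.5 and 27.8 in SCe (log2 fold change −2.78, SE 0.474, adjusted p = 0.00591), beside −4.43 in RNA-seq (adjusted p = 0.00485). H2-Q6, which shares reads with H2-Q7, was at 2.16, 0.318 and 0.731 CPM against 3.80, 10.3 and 24.1 (−3.66, adjusted p = 0.015), beside −3.76 in RNA-seq. H2-M3 was at 5.65, 4.61 and 4.51 CPM against 13.6, 12.0 and 14.1 (−1.44, adjusted p = 0.0116), beside −1.15 in RNA-seq. H2-Q10 did not pass in either assay, at 14.6, 21.3 and 18.3 CPM against 16.8, 96.7 and 58.3 in Ribo-seq (−1.64, adjusted p = 0.0553), with SCe replicate 1 within the range of the other group.

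H2-M2 was higher in Rptor fl/fl in RNA-seq, at 1.12 and 2.75 CPM against 0, 0.141 and 0.0516 in SCe, a ratio of 25.0 over pooled reads (14.0 to 49.1; adjusted p = 0.0124). It had 2 footprints in 1 culture labelled Rptor fl/fl and 0 in all other organoid Ribo-seq libraries, where a count of 0 allows up to 3 footprints, between 0.365 and 2.57 CPM.

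Psmb10 was the 1 peptide supply gene that was higher in Rptor fl/fl, in both assays. In RNA-seq it was at 24.0 and 30.3 CPM against 4.31, 6.93 and 7.38 in SCe (log2 fold change 2.13, SE 0.263, adjusted p = 0.00388), and in Ribo-seq at 79.4, 70.4 and 66.4 against 11.4, 22.2 and 23.4 CPM (1.91, SE 0.263, adjusted p = 0.00282). The RNA-seq difference stands beside the fall of Psmb10 in SCe against WT given above, with Rptor fl/fl and WT organoids overlapping. Psmb8 was lower in both assays, at 0.213 and 0.682 CPM against 1.00, 7.29 and 7.33 in RNA-seq (−3.53, adjusted p = 0.0491) and at 0.499, 0.953 and 0.487 against 2.17, 6.84 and 3.01 in Ribo-seq (−2.48, SE 0.663, adjusted p = 0.0357). Psmb9 was lower in RNA-seq (−2.24, adjusted p = 0.0172) and did not pass in Ribo-seq (−0.97, adjusted p = 0.114).

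Tap1 was lower in RNA-seq (log2 fold change −0.96, adjusted p = 0.0069) and just missed the threshold in Ribo-seq (−0.93, adjusted p = 0.0532), where it was at 6.48, 10.3 and 8.04 CPM in the cultures labelled Rptor fl/fl and 14.1, 16.3 and 16.9 in SCe. Tap2 was lower in RNA-seq (−0.94, adjusted p = 0.0367), and in Ribo-seq its groups overlapped. Tapbp did not pass in RNA-seq (−0.24, adjusted p = 0.167) or Ribo-seq (−0.81, adjusted p = 0.0619). The remaining members called in RNA-seq alone were H2-Q2 (−1.18, adjusted p = 0.0476), H2-T10 (−1.40, adjusted p = 0.0409) and H2-T22 (−1.02, adjusted p = 0.00254), and H2-Ke6 was called in both (−0.52 and −1.05).

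The number of members called in RNA-seq went from 24 to 28, 13 and 11 without SCe replicates 1, 2 and 3. Over all genes the calls fell to 2063 higher and 2286 lower of 14697 without replicate 2. Without replicate 3 they fell to 1833 and 2126 of 14668. Leaving out either Rptor fl/fl line leaves 1 line in that group, and fewer members and fewer genes over all were then called. In Ribo-seq the number of members went from 11 to 7, 5 and 4 without replicates 1, 2 and 3 labelled Rptor fl/fl. It went to 16, 9 and 10 without SCe replicates 1, 2 and 3. Over all genes the calls higher and lower fell to 300 and 588, 286 and 490, and 235 and 434 without those labelled Rptor fl/fl. They were 684 and 899 without SCe replicate 2, and 1081 and 1187 without SCe replicate 3. Leaving out SCe replicate 1 in Ribo-seq added H2-Q10 (log2 fold change −2.05), Psmb9 (−1.20), Tap1, Tap2 (−1.35) and Tapbp (−0.99). Calls over all genes rose there too, to 1170 higher and 1512 lower of 11261 tested, from 717 and 1064 of 10817. In RNA-seq without SCe replicate 1 they rose to 4582 and 4519 of 14953, from 3165 and 3287 of 15103. Members added there were H2-Q10 (log2 fold change −3.06), B2m (−0.65), Ciita (−1.37), H2-Q1 (−1.51) and H2-Bl (−1.63). H2-DMb1 (−1.21) lost its call. Under each alternative tried 4 members kept their Ribo-seq call, namely H2-D1, H2-Ab1, H2-Q7 and Psmb10, and 5 their RNA-seq call, namely H2-K1, H2-T22, H2-Eb1, Tap1 and Psmb10.

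Cell type markers moved with these groups too. In RNA-seq epithelial markers summed to 8673 to 8756 CPM in Rptor fl/fl and 4483 to 4895.5 in SCe. T and NK cell markers were at 1.16 to 1.54 CPM against 4.59 to 5.85, stroma markers at 0.175 to 0.213 against 3.96 to 6.25, and smooth muscle markers at 0.252 to 0.455 against 1.27 to 1.62. Lck was called lower in Rptor fl/fl (log2 fold change −3.56, adjusted p = 0.00206), as was Mzb1, with 0 reads there (adjusted p = 0.00996). Cd79b, of the same list as Mzb1, was called higher (3.17, adjusted p = 0.0175). In Ribo-seq epithelial markers summed to 15892 to 16049 CPM in the cultures labelled Rptor fl/fl and 7721.5 to 10987 in SCe, enterocyte markers to 8342 to 8815 and 1110 to 3794.5, and Lgr5 stem cell markers to 6246 to 6403 and 2761 to 4796. Most stem cell markers did not follow their sum. Of the 7, Olfm4 was called higher (log2 fold change 2.47) and 3 were called lower, Lgr5 among them (−1.23, adjusted p = 0.00668), with a median of −0.58. T and NK cell markers were at 0.166 to 0.731 CPM against 0.855 to 4.34, B and plasma cell markers at 2.38 to 3.82 against 0 to 0.694, and stroma markers at 1.27 to 1.99 against 2.31 to 3.80, while macrophage and dendritic cell markers overlapped at up to 9.77 CPM. The part of these cells was not tested.

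**Figure D4:**
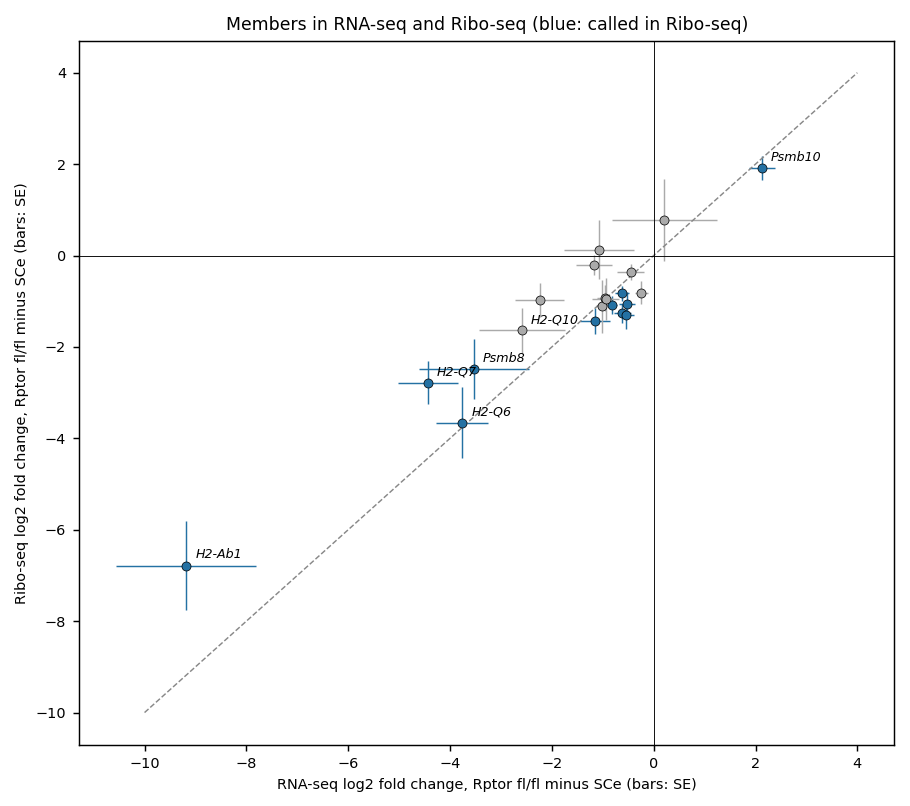
Log2 fold change, Rptor fl/fl minus SCe, in RNA-seq (x) and Ribo-seq (y) for the 21 members tested in both, with bars of 1 SE and the line of equal change dashed. Points called in Ribo-seq are blue. H2-Ab1 lies lowest (−9.18 and −6.79), Psmb10 is the 1 called member above 0 in both, and H2-Q6, H2-Q7 and Psmb8 lie in the lower left.

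Translation efficiency asks whether footprints changed beyond RNA, and was tested as the interaction of assay and group. By label the Rptor fl/fl cultures of the Ribo-seq carried RPL22.HA and the RNA-seq lines did not, so the assays were not matched. Rptor itself had a log2 fold change of −1.89 in RNA-seq (adjusted p = 0.00105) and −0.53 in Ribo-seq (adjusted p = 0.318). Its translation efficiency changed by 1.37 (adjusted p = 0.0845), so the values below carry this difference between assays. None of the 21 members tested was called by edgeR, 3 had an unadjusted p under 0.05, and DESeq2 called 0 with 4 at an unadjusted p under 0.05. Over all 10747 genes 3.16% passed, 0.94% higher and 2.22% lower. The 3 members were H2-Q2 (0.98, SE 0.406, adjusted p = 0.205), H2-D1 (−0.65, SE 0.273, adjusted p = 0.212) and H2-Q4 (−0.77, SE 0.327, adjusted p = 0.218). The interval was wide for H2-Ab1 (2.19, 95% interval −2.94 to 7.32) and narrower for H2-K1 (−0.26, −0.80 to 0.28), B2m (0.10, −0.57 to 0.77) and Psmb10 (−0.22, −1.06 to 0.63).

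In mice the question was what Rptor deletion in Lgr5-expressing cells does to ribosome association in vivo. The pulldown held footprints of many cell types besides. Summed enterocyte markers were at 53495 to 55351 CPM in WT and 58721 to 63297 in the mice labelled Rptor fl/fl, Lgr5 stem cell markers at 724 to 749 and 459 to 727, and Paneth cell markers at 9777 to 10646 and 5353 to 8926. B and plasma cell markers were at 1060.5 to 1128 and 775 to 838 CPM, macrophage and dendritic cell markers at 468 to 502 and 559.7 to 586, T and NK cell markers at 259 to 310 and 248 to 253, and stroma markers at 888 to 947 and 1128 to 1330.1. Endothelial markers were at 62.5 to 74.6 CPM in WT and 85.7 to 94.4 in the mice labelled Rptor fl/fl, with Emcn (log2 fold change 1.32, adjusted p = 0.0131) and Cdh5 (0.71, adjusted p = 0.0174) called higher. Many of these cells carry MHC molecules, and their part in the differences below was not tested.

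Of 32 members tested in mice, 5 were higher and 2 lower in the mice labelled Rptor fl/fl. Over all 11515 genes 13.4% passed, 7.47% higher and 5.97% lower. The median log2 fold change was 0.00044 over members and −0.015 over all genes.

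The light chain and both classical heavy chains were higher. B2m was at 2124, 2318 and 2326 CPM in WT and at 3058, 3343 and 3346 in the mice labelled Rptor fl/fl, 1.44-fold (log2 fold change 0.52, SE 0.0676, adjusted p = 8.45e-05). It kept its call under each alternative tried and whichever mouse was left out. H2-K1 was at 1964, 1934 and 1965 CPM against 2092, 2440.1 and 2405 (0.24, SE 0.0709, adjusted p = 0.0341), and H2-D1 at 881, 926 and 911 against 999.8, 1115 and 1125 (0.25, SE 0.0701, adjusted p = 0.0271). The call of H2-K1 stood in 6 of 12 alternatives and that of H2-D1 in 7. Each stood in 1 of the 6 fits with a mouse left out. The groups did not overlap in any of these genes, as in 31.1% of all genes tested in mice.

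**Figure D5:**
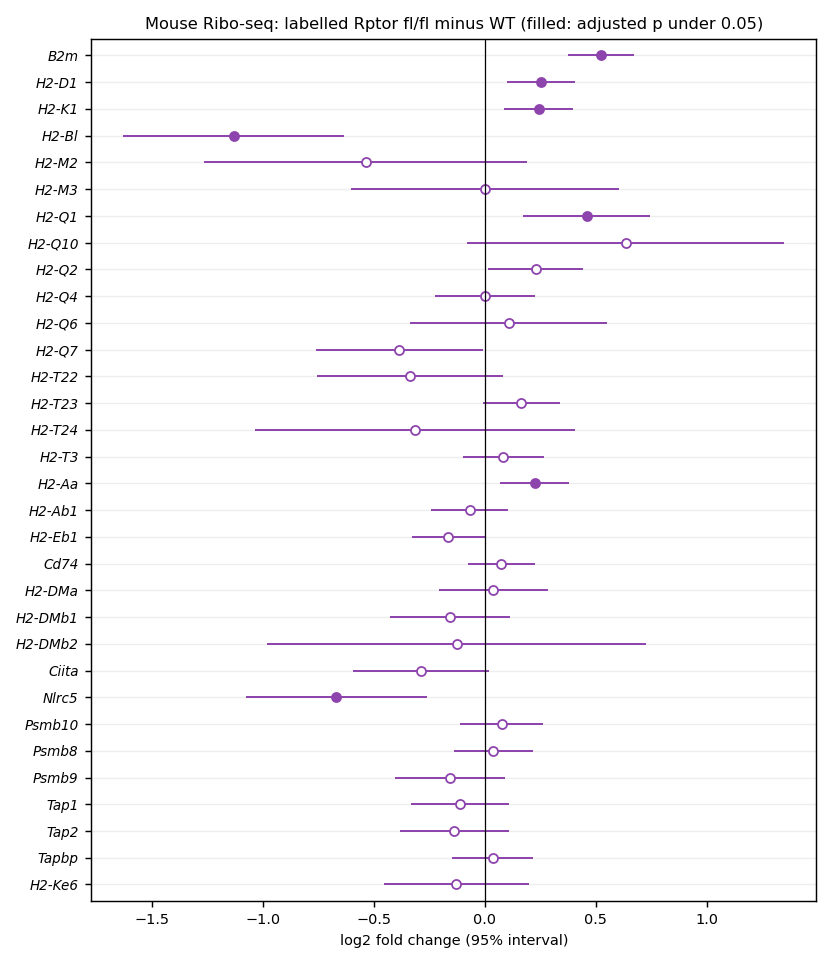
Log2 fold changes, mice labelled Rptor fl/fl minus WT (3 each), of the members tested in mouse Ribo-seq, with 95% intervals and filled points at an adjusted p under 0.05, ordered by role. B2m stands at 0.52 with a narrow interval, most class II and peptide supply genes lie near 0, and H2-Bl stands at −1.13.

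Of class II and its loading factors 1 gene, H2-Aa, was called, at 669, 726 and 724 CPM in WT and 779.8, 869 and 835 in the mice labelled Rptor fl/fl (log2 fold change 0.22, SE 0.071, adjusted p = 0.0489). That call stood in 5 of 12 alternatives. H2-Ab1, the partner of H2-Aa, was not called, at 1066, 1024 and 984 CPM against 860.5, 1021 and 1040.5 (−0.07, 95% interval −0.24 to 0.10). H2-Eb1 was at 565, 543 and 528 CPM against 446, 493 and 514, without overlap but short of the threshold (−0.17, SE 0.0747, adjusted p = 0.171).

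Cd74 was at 2612, 2576 and 2566 CPM in WT and 2476, 2839 and 2846 in the mice labelled Rptor fl/fl, with overlap (log2 fold change 0.07, adjusted p = 0.548). Summed class II chains were at 2236 to 2302 CPM against 2088 to 2392. H2-DMa, at 53.1, 54.3 and 59.7 CPM against 53.0, 55.7 and 64.0, and H2-DMb1, at 83.4, 66.2 and 75.1 against 53.7, 68.8 and 73.1, overlapped, and H2-DMb2 had at most 5.94 CPM.

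Of the transactivators 1 passed the test. Nlrc5 was at 13.9, 19.6 and 25.4 CPM in WT and 15.2, 13.4 and 13.0 in the mice labelled Rptor fl/fl and was called (log2 fold change −0.67, SE 0.189, adjusted p = 0.029), though WT replicate 1 lay within the range of the other group and the call stood in 5 of 12 alternatives. Ciita was at 58.1, 59.8 and 79.8 CPM against 46.4, 56.3 and 64.0 (−0.29, adjusted p = 0.207). Of the class Ib genes, H2-Bl was at 11.4, 15.5 and 12.2 CPM against 5.27, 5.18 and 6.82 (−1.13, SE 0.231, adjusted p = 0.00408) and H2-Q1 at 73.3, 67.6 and 55.5 against 69.8, 91.6 and 94.5 (0.46, SE 0.132, adjusted p = 0.0319), with overlap. The call of H2-Q1 stood in 6 of 12 alternatives. H2-Q10 was low in mice, at 2.53, 2.74 and 5.11 CPM in WT and 8.24, 6.39 and 5.31 in the mice labelled Rptor fl/fl (0.63, SE 0.333, adjusted p = 0.242).

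None of the 6 peptide supply genes was called in mice, and their smallest adjusted p was 0.422 by edgeR. Psmb8 was at 246, 242 and 233 CPM in WT and 225, 247 and 263 in the mice labelled Rptor fl/fl, Psmb10 at 324, 332 and 311 against 297, 352 and 365, and Tap1 at 163, 161 and 171 against 130.4, 153 and 174. The 95% interval of Psmb10 was −0.11 to 0.26 on the log2 scale. Without WT mouse 1, 2 or 3 the count of called members was 4, 2 or 2. Without mouse 1, 2 or 3 labelled Rptor fl/fl it was 9, 2 or 3. B2m and H2-Bl were called each time. Over all genes the calls higher and lower were 860 and 687 with all mice. Without the WT mice in turn they were 703 and 560, 586 and 423, and 536 and 389. Without those labelled Rptor fl/fl they were 1095 and 859, 517 and 380, and 621 and 431. The call of H2-Bl was lost with an offset for effective transcript length.

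Other genes of antigen presentation, a list of 28 of which 27 were found, were read against the shares over all genes. In Rptor fl/fl against WT organoids 26 were tested, and 2 rose and 6 fell (median log2 fold change −0.28), beside 11.6% and 11% of all genes. In SCe against WT 5 of 27 rose and 9 fell (−0.16), beside 22.4% and 19.9%. In Rptor fl/fl against SCe 3 of 27 were higher and 7 lower in RNA-seq, beside 21% and 21.8%, and 1 of 25 higher and 3 lower in Ribo-seq, beside 6.63% and 9.84%. In mice 6 of 26 were higher and 0 lower (median 0.06), beside 7.47% and 5.97%.

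Lysosomal proteases of class II processing were among those that changed. Cathepsin L (Ctsl) was higher in Rptor fl/fl than in WT organoids (log2 fold change 1.45, adjusted p = 0.0109) and in SCe than in WT (2.53, adjusted p = 0.00114), and lower in Rptor fl/fl than in SCe in RNA-seq (−1.06, adjusted p = 0.00608), in Ribo-seq (−2.55, adjusted p = 0.000498) and in translation efficiency (−1.48, adjusted p = 0.0229). In mice it was higher in those labelled Rptor fl/fl (0.77, adjusted p = 3.64e-05). Cathepsin S (Ctss) was higher in Rptor fl/fl than in SCe (3.25 in RNA-seq and 3.07 in Ribo-seq), and legumain (Lgmn) lower (−2.50 and −2.06). Rfxank, a subunit of the RFX factor that binds MHC promoters, was lower in SCe than in WT organoids (−1.06, adjusted p = 0.00216).

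The interferon gamma pathway was a list of 24 genes, to be read against the same shares over all genes. In Rptor fl/fl against WT 2 of 20 rose, Ido1 (log2 fold change 3.51, adjusted p = 0.0272) and Gbp7 (1.46, adjusted p = 0.0304), and 0 fell. In SCe against WT 7 of 19 rose, among them the chemokine Cxcl9 (2.90), and 5 fell, among them the receptor chain Ifngr2 (−0.74) and the factor Irf2 (−0.94), beside 22.4% and 19.9% of all genes. In Rptor fl/fl against SCe 4 of 20 were higher and 6 lower in RNA-seq, and 1 of 12 higher and 0 lower in Ribo-seq. In mice 4 of 23 were higher, led by Ubd (1.29, adjusted p = 1.02e-06) and the factor Irf1 (0.50, adjusted p = 0.00094), and 3 lower, led by Irgm1 (−0.42, adjusted p = 0.00917) and Cxcl10 (−1.05, adjusted p = 0.0183).

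Members at the limit of detection were accounted for as follows. In RNA-seq 11 of the 47 members had 0 reads in every library and 26 had at least 10 in every one. In Ribo-seq of organoids 12 had 0 and 14 at least 10, and in mice 8 had 0 and 26 at least 10. H2-Ea-ps, H2-M1, H2-M10.3 and H2-M10.4 had no read in any assay. H2-Oa and H2-Ob, which code for the H2-DO modulator known from B cells, had no read in any organoid library.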

How the data were processed

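Per the submitters' processing notes and the study's methods, Ribo-seq adapters were cut with cutadapt 1.18, rRNA fragments were filtered out and reads were quantified with Salmon 1.1.0, with mm10 as the build. The deposited files give estimated counts (NumReads) per sequence: 66244 transcripts of 22350 genes for RNA-seq, 59120 coding sequences with added bases for Ribo-seq of organoids, and 65862 sequences that mostly include the 5′ region for mice. Entries with the suffix _uORF were left out. The authors' TPM and their own table of translation efficiency, with ratios and p-values, were not used.

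For each gene the estimated counts were added up and rounded to whole numbers, and technical libraries of a line were pooled. edgeR 4.0.16 in R 4.3.3 (filterByExpr, TMM, quasi-likelihood test, Benjamini-Hochberg over all genes tested, called at an adjusted p under 0.05) was fitted on the libraries of each comparison, after a test on simulated data. For translation efficiency the assay-by-group interaction was tested. CPM is counts over the TMM-scaled library size, and intervals on counts are exact binomial at 95%. Levels between genes use full sequence length, not Salmon's effective length as planned, since that assumes long fragments. Alternatives were DESeq2 1.42.0, RLE factors, no count filter, an effective length offset, leaving the 10 most counted genes out of library sizes and fit, a threshold of 0.01, a replicate block, separate technical libraries, all RNA-seq groups in 1 fit, and each replicate left out.

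Shared stretches were counted over 31 bases in transcripts and 28 in coding sequences. Sequences came from GENCODE gene models on GRCm38.p6 and from RefSeq promoters. Members, lists and tests were chosen with earlier results of these data known. Values are given for the core members H2-K1, H2-D1, B2m, H2-Aa, H2-Ab1, H2-Eb1, Cd74, H2-DMa, H2-DMb1, H2-DMb2, Ciita, Nlrc5, Tap1, Tap2, Tapbp, Psmb8, Psmb9 and Psmb10 whatever their result, and for any other member called in at least 1 of 6 comparisons. Of the pathway lists at most the 2 called genes with the smallest adjusted p per direction are named. H2-T3 was added after its values were seen.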

Additional observations from a re-analysis of the deposited data

Results flagged for a closer look

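Reads on annotated 5′ entries, which entered no comparison, lay above the limit that a count of 0 allows, 3 reads, for 11 members in Ribo-seq of organoids, for 7 of them in both groups and for 4 in Rptor fl/fl cultures alone. Summed over the 3 libraries labelled Rptor fl/fl and over the 3 SCe libraries, Psmb10 had 64 and 17 reads, H2-T22 56 and 45, Tapbp 30 and 15, Tap1 18 and 8, B2m 6 and 9, H2-Q2 7 and 5, and H2-DMa 5 and 5. The other 4 were H2-D1 with 24 and 0 reads, Tap2 with 8 and 0, Cd74 with 6 and 1, and Nlrc5 with 5 and 0. The libraries labelled Rptor fl/fl were the deeper ones, and these sums are not scaled for depth.

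For 4 members the change from WT to Rptor fl/fl had opposite signs in organoid RNA-seq and in mouse Ribo-seq, with groups that did not overlap in either. That is 4 of 26 members tested in both, while 12.1% of all 10644 genes tested in both met the same rule. Lack of overlap alone was seen in 69.1% of all genes tested in these organoids and 31.1% in mice. The log2 fold changes in organoids and mice were −0.147 and 0.243 for H2-K1, 0.338 and −0.128 for H2-Ke6, 3.7 and −0.537 for H2-M2, and −2.83 and 0.635 for H2-Q10. The difference between the 2 settings was not tested, since they differ in assay, counted sequences and tissue. H2-K1 passed the test in mice, H2-M2 and H2-Q10 passed in organoids, and H2-Ke6 passed in neither.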

How the results depend on the processing

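Of 2022 values of named members under other settings, 1695 kept direction and side of the threshold, 203 lost a call, 52 gained one and 72 changed sign. Causes were not tested. In the order Rptor fl/fl against WT, SCe against WT, Rptor fl/fl against SCe in RNA-seq, the same in Ribo-seq, and mice, 7, 18, 24, 11 and 7 members were called, and at an adjusted p under 0.01 these were 1, 8, 10, 5 and 2. With each replicate left out in turn the counts ranged from 1 to 5, 6 to 27, 6 to 28, 4 to 16 and 2 to 9, and for translation efficiency from 0 to 1 (Cd74 without Ribo-seq SCe replicate 1 or 3, H2-Q2 without RNA-seq SCe replicate 1). With an effective length offset 2 members were called in mice. In Rptor fl/fl against WT organoids 13 members were called with technical libraries separate and 0 with all RNA-seq groups in 1 fit.

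With the replicate number as a block, 13, 11 and 15 members were called in the 3 RNA-seq comparisons in place of 7, 18 and 24, 11 in Ribo-seq and 5 in mice. Same-numbered samples correlated at 0.303 in the first, 0.144 to 0.25 in the other RNA-seq comparisons, −0.044 to 0.0289 in Ribo-seq and −0.00561 to 0.034 in mice. The study's methods mention a further set of Rptor fl/fl animals, induced in vitro for paired samples, without naming the libraries. The RNA-seq groups share 2 numbers, too few to show pairing, and no label ties same-numbered samples to 1 source. The numbers were therefore not taken to pair samples. With the block, calls higher and lower over all genes changed from 1637 and 1558 to 2359 and 2392 in Rptor fl/fl against WT. They changed from 3343 and 2966 to 1753 and 1401 in SCe against WT. In Rptor fl/fl against SCe they changed from 3165 and 3287 to 1673 and 1740, and in Ribo-seq from 717 and 1064 to 516 and 712. The change was from 860 and 687 to 731 and 574 in mice, and from 101 and 239 to 2 and 2 in translation efficiency. Technical libraries taken separately gave 3566 and 3642 in Rptor fl/fl against WT and 503 and 833 in translation efficiency, the joint RNA-seq fit 821 and 723 in place of 1637 and 1558, DESeq2 429 and 811 in translation efficiency, and the length offset 298 and 385 in Ribo-seq in place of 717 and 1064, 58 and 60 in translation efficiency and 398 and 287 in mice in place of 860 and 687. DESeq2 gave no adjusted p for 673 genes in mice.

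Signs changed as follows (log2 fold changes). In Rptor fl/fl against WT, H2-T10 reached 0.000387 with RLE factors, 0.016 with the block and 0.00832 with technical libraries separate. In SCe against WT the block gave −0.573 for H2-Q1 and −0.0527 for H2-Q2, and in Ribo-seq −0.0897 for H2-Q1. The length offset gave 0.349 for H2-Q2, 0.984 for H2-T22, 0.934 for Tap2 and 0.36 for Tapbp in Ribo-seq, and 1.07 for H2-T22, 1.87 for Tap2, 0.623 for Tapbp, −0.464 for Psmb8 and −0.542 for Psmb9 in translation efficiency. There the block gave −0.0238 for B2m and −0.107 for H2-Q6, and Tap2 was 0.0112 with DESeq2, 0.0116 with no filter and 0.0119 with technical libraries separate. In mice the offset gave 0.0181 for H2-Ke6, 0.00674 for H2-M3 and −0.0137 for H2-Q4, and H2-M3 was 0.0108 with DESeq2, 0.00582 with RLE, 0.0116 with no filter and 0.000501 without the 10 largest genes.

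With replicates left out, values crossed 0 in Rptor fl/fl against WT for Ciita (−0.54 to 0.337), H2-Q4 (−0.0418 to 0.075), H2-T10 (−0.533 to 0.759), Tap1 (−0.0182 to 0.364) and Tap2 (−0.0883 to 0.461), in SCe against WT for H2-Q1 (−0.251 to 0.465) and H2-Q10 (−0.736 to 0.251), and in Ribo-seq for H2-Q1 (−0.717 to 0.487). In translation efficiency they did for B2m (−0.112 to 0.333), H2-M3 (−0.618 to 0.114), H2-Q6 (−0.884 to 1.11), H2-T22 (−0.672 to 0.316), Psmb10 (−0.471 to 0.0462), Tap1 (−0.148 to 0.222) and Tap2 (−0.396 to 0.515). In mice they did for H2-Ab1 (−0.116 to 0.0196), H2-DMa (−0.0579 to 0.114), H2-DMb2 (−0.395 to 0.291), H2-M3 (−0.183 to 0.262), H2-Q4 (−0.0876 to 0.0694), H2-Q6 (−0.0528 to 0.493), Psmb8 (−0.0177 to 0.103) and Tapbp (−0.033 to 0.123). None of these was called with all replicates.

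Summing copies that share reads gave −0.277 for all class I heavy chains in Rptor fl/fl against WT where H2-K1 alone gave −0.147, and 0.594 against 0.682 in SCe against WT. For class II chains it gave −1.37 where H2-Ab1 gave −2.3 in Rptor fl/fl against WT, and −7.35 against −9.24 in Rptor fl/fl against SCe. Depth limits members under 10 reads in every library, of which there were 15 in RNA-seq, 24 in Ribo-seq of organoids and 12 in mice.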
